A study of Mus musculus with 6 samples.

Results

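Ttc36, Cited4, Cyp4a12a and Ube2h are 4 of the 31053 genes listed in single-cell count matrices of the mouse cornea. They were selected on their measured level in epithelial cells, which earlier results of these data had as lower at 6 months than at 2 months of age, and were then found by gene symbol, so every age difference of these 4 genes in epithelial cells below is a description with no test. The comparison made here used the whole-cornea libraries. It separates the layer mix of the epithelium from the level inside each layer, within wild-type (WT) and within knockout (KO) mice. In these libraries Cited4, Cyp4a12a and Ube2h were lower at 6 months inside the wing-like and the superficial-like layer of both genotypes. Superficial-like Cyp4a12a rested on 5 to 41 counts per library. Ttc36 was lower inside the wing-like layer of both genotypes but higher inside the superficial-like layer of KO, so its description as a gene that falls by 6 months held in KO for the wing-like but not the superficial-like layer. In WT Ttc36 was lower in both layers and over the whole epithelium. Another 6-month preparation, enriched for cells with the leukocyte protein CD45, differed in part. There Ube2h was not below its 2-month whole-cornea level in either layer, nor was wing-like Cited4 in KO. The wing-like cells of that preparation had another make-up of sub-clusters, which these wing-like levels take in. Superficial-like Ttc36 in KO was below its 2-month level there.

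All donors were labelled as naïve female mice, and their genetic background as 129S2–C57BL/6-mixed. The tissue was the cornea inside the limbus, broken up with collagenase A plus DNase I, and dead cells were taken out. KO mice carried the gene-trap allele miR-183C GT/GT, which inactivates the microRNA cluster miR-183, miR-96 and miR-182, and WT mice were matched for age and sex. The 6 groups were whole cornea of WT and of KO at 2 months, whole cornea of WT and of KO at 6 months, and, at 6 months, a preparation from WT and from KO in which cells carrying the leukocyte protein CD45 had been enriched magnetically (CRIC in the labels). Each group was 1 library. How many animals were pooled in each is not given in the sources used here, so the few p-values below do not measure a spread between animals. They rest on how far the whole-cornea libraries depart from an additive fit of age and genotype. An age change that differs by genotype counts as noise in them.

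The whole-cornea libraries held 33127813 to 117613142 UMIs (unique molecular identifiers, which count captured RNA molecules) and gave 11120 to 15078 cells with a median of 1864 to 5496.5 UMIs. The shallowest was that of KO at 6 months. The 2-month KO library held 3077 UMIs of Y-linked genes against 0 to 2 in each other library, which goes against its label of female mice, and the KO age differences of the 4 genes are given below also for Xist-only cells. Cell barcodes shared between libraries numbered 2 to 32 per pair. Epithelial-like cells numbered 3457 (WT) and 4432 (KO) at 2 months and 3234 (WT) and 2020 (KO) at 6 months. Their summed keratocyte markers (8 genes, 1 of them at 0 in WT at 6 months) stood at 131 to 245 counts scaled to a common UMI total (CPM). If all of these came from free RNA, it would make up 0.418% to 0.770% of UMIs. That share was computed from the same markers, so it does not show where they came from. The summed immune markers of the epithelial-like cells (8 genes, 1 or 2 of them at 0) stood at 1.42 to 3.83 CPM.

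The corneal epithelium renews itself from below. Basal cells divide on the stroma, their daughters pass upwards as wing cells, and flat superficial cells at the tear film are shed. A gene used in a single layer therefore changes its level over the whole epithelium whenever that layer takes a larger or smaller part of the harvested cells, even if each cell keeps its level. MicroRNAs lower the output of messenger RNAs that pair with their seed, a short stretch near the 5′ end, mostly in the 3′ untranslated region (UTR), and the cluster of miR-183, miR-96 and miR-182 is known for its abundance in sensory organs.

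The 3 mature 5p microRNAs of the inactivated cluster are shown because they define the KO and because Ube2h is their neighbour on chromosome 6. They are from RefSeq on build GRCm38.p6, all on the minus strand, written 5′ to 3′ with the seed, bases 2 to 8, in capitals. They lie at chr6:30169711-30169732 (miR-183-5p), chr6:30169506-30169528 (miR-96-5p) and chr6:30165962-30165986 (miR-182-5p).
miR-183-5p: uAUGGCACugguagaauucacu
miR-96-5p: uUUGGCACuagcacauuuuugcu
miR-182-5p: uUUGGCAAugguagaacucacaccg
The 3 seeds differ from each other, so each was searched for on its own in the longest annotated 3′ UTR of each gene, as the exact reverse complement of bases 2 to 8.

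Ube2h (ENSMUSG00000039159, chr6:30211289-30304539) is on the minus strand, and its 3′ end lies 41551 bases from the Mir183 hairpin. Its 3′ UTR of 3670 bases held 3 matches to miR-182-5p and none to the other 2. They are printed with the match in capitals, on the minus strand, at chr6:30212346-30212374, chr6:30212233-30212261 and chr6:30212072-30212100 of GRCm38.
Ube2h site 1: gacttgagcccTTGCCAAacaaacaccga
Ube2h site 2: gtgttccgtgcTTGCCAAcctagaccctg
Ube2h site 3: cgctgttctaaTTGCCAAccggctgctct
A match to miR-182-5p was present in 10.9% of 21092 genes and in 27.1% of genes with a UTR of like length, of which 0.524% held 3 or more. Cyp4a12a (ENSMUSG00000066071, chr4:115299046-115332815) held 1 match to miR-183-5p in 813 bases, at chr4:115332421-115332449 on the plus strand, where 4.98% of genes of like length hold one.
Cyp4a12a site: aggtcattgcaGTGCCATcactccttggg
Ttc36 (ENSMUSG00000039438, chr9:44799400-44802951) and Cited4 (ENSMUSG00000070803, chr4:120666563-120667820) held no match in 74 and 469 bases. A match is a string in the sequence and not evidence of binding.

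Cells were sorted into layers by clustering without the 4 genes, and clusters were named from marker lists. Wing-like cells had the highest sum of the 9 wing markers, such as Krt12 and Ly6d (31894 to 38579 CPM, against 10155 to 14548 in superficial-like cells). Superficial-like cells had the highest sum of the 12 superficial markers, such as Psca and Asprv1 (150648 to 173722 CPM, against 5006 to 8313 in wing-like cells). A cluster led by Slc16a11 scored highest for the superficial list but had a conjunctival marker, Krt7, and no superficial marker among its 10 leading genes, and stayed unnamed. It is called Slc16a11-led below.

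The mix of layers differed strongly between the ages in both genotypes. In WT, wing-like cells held 22.9% of epithelial UMIs at 2 months and 6.17% at 6 months, and superficial-like cells 47.9% and 60.8%. In KO, wing-like cells held 34.4% and 10.7%, and superficial-like cells 26.1% and 69.5%. The Slc16a11-led cells went from 14.2% to 10.8% of UMIs in WT and from 17.9% to 6.37% in KO, and basal-like cells from 10.2% to 14.8% in WT and from 16.6% to 8.46% in KO. At 1 library per group these shares also carry how far each digestion freed each layer, which was not tested. The bars of layer shares show both genotypes losing most of the wing-like part.

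**Figure D1:**
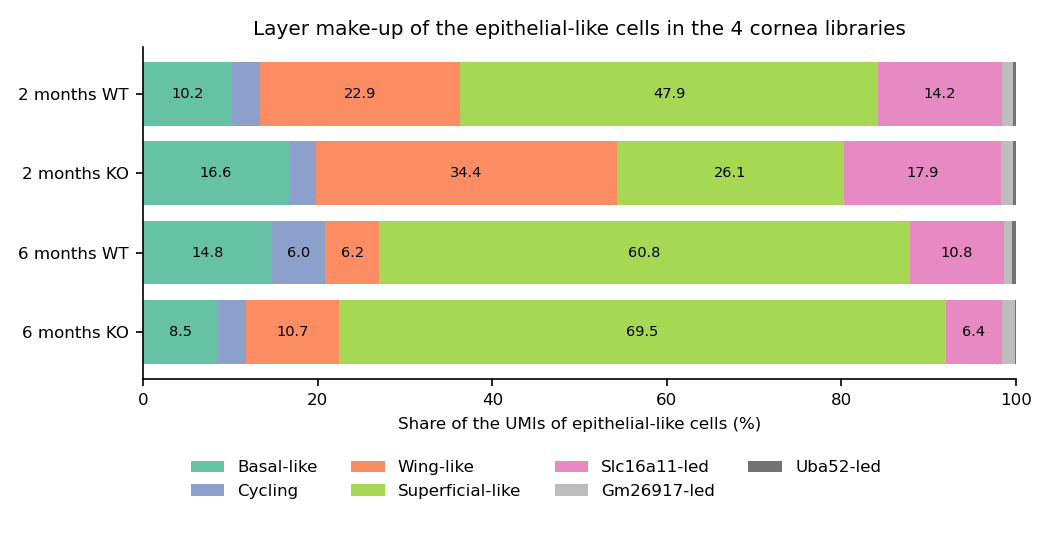
Share of the UMIs of epithelial-like cells (percent, horizontal axis) held by each layer or unnamed cluster, 1 stacked bar for each of the 4 whole-cornea libraries. Wing-like cells held 22.9% and then 6.17% in WT and 34.4% and then 10.7% in KO, while superficial-like cells held 60.8% (WT) and 69.5% (KO) at 6 months.

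All levels below are CPM, the counts of the gene summed over the cells of a class and library and divided by the class's UMIs in units of 1e6. Brackets hold 95% exact Poisson intervals for a level and exact intervals for a ratio of 2 counts. They cover counting error only, not differences between animals. Summed over the mix of layers, the scale itself moves. The median of all genes of at least 10 CPM shifted by -0.17 (WT) and -0.75 (KO) on the log2 scale from 2 to 6 months over all epithelial-like cells, but by -0.08 and -0.13 in wing-like, 0.05 and -0.04 in superficial-like, -0.00 and -0.03 in Slc16a11-led and 0.03 and -0.25 in basal-like cells. Levels inside a layer are thus less touched by the scale than the level of the whole epithelium.

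Cyp4a12a encodes a cytochrome P450 that hydroxylates fatty acids, arachidonic acid among them, at the far end of the chain, and is best known from male mouse liver and kidney. Over all epithelial-like cells its level was 8.68 CPM [7.53 to 9.95] in WT and 10.5 CPM [9.39 to 11.7] in KO at 2 months, and 1.88 CPM [1.47 to 2.38] in WT and 1.36 CPM [0.779 to 2.21] in KO at 6 months. The 6-month libraries were both low and did not overlap the 2-month ones.

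It was a gene of the wing-like layer. There its level was 28.6 CPM [24.3 to 33.5] in WT and 27.5 CPM [24.4 to 30.9] in KO at 2 months. At 6 months it was 10.0 CPM [6.35 to 15.03] in WT and 5.59 CPM [2.25 to 11.5] in KO, from 23 and 7 counts. The log2 change was -1.51 [-2.21 to -0.88] in WT and -2.30 [-3.63 to -1.24] in KO. Superficial-like cells held 3.02 (WT) and 2.15 (KO) CPM at 2 months, from 34 and 17 counts, and 1.81 and 0.613 CPM at 6 months, from 41 and 5. Their log2 change was -0.74 [-1.43 to -0.04] in WT and -1.81 [-3.61 to -0.32] in KO. The intervals of the levels at the 2 ages overlap in each genotype. Basal-like and cycling-like cells had 5 counts or fewer in each library, keratocyte-like cells 2 or fewer and immune-like cells 1 or fewer, so no change could be read there.

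Both the mix and the level inside layers were part of the lower whole-epithelium value of Cyp4a12a. Wing-like cells supplied 75.5% of its epithelial counts at 2 months and 32.9% at 6 months in WT, and 89.9% and 43.8% in KO. Splitting the drop in CPM exactly into a part from layer shares and a part from layer levels gave 43.5% from the shares in WT and 38.6% in KO. At a fixed mix, the mean of both ages, the log2 change was -1.31 [-1.74 to -0.88] in WT against -2.21 unadjusted, and -1.91 [-2.70 to -1.12] in KO against -2.95 unadjusted.

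The wing-like layer itself was a mix. Of its 3 sub-clusters, the one led by Krt15 and Spink5 had the highest Cyp4a12a level, 49.98 (WT) and 54.5 (KO) CPM at 2 months, and went from 347 cells in each genotype to 73 (WT) and 25 (KO) cells at 6 months. Inside that sub-cluster the 6-month level was 32.1 CPM [19.4 to 50.2] in WT and 42.2 CPM [8.69 to 123] in KO, the latter from 3 counts, and in KO this interval covers the 2-month level. In the sub-cluster led by Fabp5 and Gsta2 it was 24.2 (WT) and 22.5 (KO) CPM at 2 months and 5.01 CPM [1.03 to 14.6] and 4.34 CPM [1.18 to 11.1] at 6 months. With each sub-cluster taken as its own layer the fixed-mix log2 change in KO was -1.07 [-2.20 to 0.05], so at that depth this interval covers no change inside sub-clusters.

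Cyp4a12a has a near-identical neighbour, Cyp4a12b (chr4:115411624-115439034), another enzyme of the same family. Of the 50-base windows in the last 500 bases of the longest Cyp4a12a transcript, 37.0% occur unchanged in Cyp4a12b, so reads can be lost or moved between the copies and the Cyp4a12a counts are uncertain for that reason. In wing-like cells Cyp4a12b stood at 284 (WT) and 197 (KO) CPM at 2 months and 221 (WT) and 160 (KO) CPM at 6 months, a log2 change of -0.36 and -0.30. In superficial-like cells it was higher at 6 months, by 0.44 (WT) and 0.60 (KO) on the log2 scale. The drop of Cyp4a12a inside wing-like cells was thus not matched in size by its copy, and no test of this difference was made.

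Ttc36 encodes a small protein of tetratricopeptide repeats, known in liver and kidney as a partner of the tyrosine-breakdown enzyme Hpd. Over all epithelial-like cells its level was 187 CPM [182 to 193] in WT and 156 CPM [152 to 160] in KO at 2 months, and 131 CPM [127 to 134] in WT and 147 CPM [140 to 154] in KO at 6 months. The log2 change was -0.52 in WT and only -0.09 in KO, and on the TMM scale, which centres on the bulk of genes, -0.34 in WT and 0.74, the other direction, in KO.

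Its level depended on the layer. In wing-like cells it was 199.9 CPM [188 to 212] in WT and 234.0 CPM [225 to 244] in KO at 2 months. At 6 months it was 91.9 CPM [79.9 to 105] in WT and 67.8 CPM [54.2 to 83.9] in KO. The 6-month wing-like cells were low in both genotypes, with a log2 change of -1.12 [-1.34 to -0.91] in WT and -1.79 [-2.12 to -1.47] in KO.

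In superficial-like cells Ttc36 was 210 CPM [202 to 219] in WT and 150 CPM [142 to 159] in KO at 2 months, and 171 CPM [165 to 176] in WT and 176 CPM [167 to 185] in KO at 6 months. The log2 change was -0.30 [-0.37 to -0.22] in WT and 0.23 [0.11 to 0.34] in KO, so the 2 genotypes went opposite ways. The KO value was 0.047 under another clustering seed and 0.54 with the sub-cluster led by Sprr2f and Cnfn taken out as its own layer, and it stayed above 0 in all 11 alternatives. The Slc16a11-led cells showed the same, with 265 (WT) and 182 (KO) CPM at 2 months, 185 and 259 CPM at 6 months, and a log2 change of -0.52 in WT and 0.51 in KO. Basal-like cells held 3.33 to 8.54 CPM and keratocyte-like cells 0.929 to 1.48 CPM, both far below the free RNA of the same libraries (33.4 to 67.7 CPM).

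The superficial-like cells of the 6-month KO library were of another make-up. The sub-cluster led by Sprr2f and Cnfn had 378 of their 905 cells, against 77 to 95 cells in each other whole-cornea library. In that sub-cluster KO Ttc36 was 192 CPM [167 to 220] at 2 months and 137 CPM [126 to 150] at 6 months, lower and not higher. In the sub-clusters led by Clca4a and by Cxcl2 it was 144 and 142 CPM at 2 months and 258 CPM [228 to 290] and 211 CPM [189 to 234] at 6 months. In the one led by Krtap3-2 it was 155 CPM [133 to 179] and then 195 CPM [172 to 222], and in the one led by Gm26870 139 CPM [102 to 187] and then 108 CPM [74.2 to 151]. The higher KO level was thus found in some superficial-like clusters and not in the one that held most cells at 6 months.

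For Ttc36 the part from the layer mix was small in WT and of opposite sign to the part from levels in KO. In WT the change of -56.5 CPM held a part of -7.08 CPM from layer shares and -49.4 CPM from layer levels, and the fixed-mix log2 change was -0.46 [-0.53 to -0.40]. In KO the part from shares was 8.45 CPM and that from levels -17.8 CPM, and the fixed-mix log2 change was -0.18 [-0.27 to -0.09]. This KO value rested on opposite movements, a part of -37.4 CPM from wing-like cells and parts of 12.1 CPM from superficial-like and 9.35 CPM from Slc16a11-led cells. With only the KO cells that held Xist and no Y-linked UMIs it was -0.59, from 2016 such 2-month and 1267 such 6-month cells. This filter also left out 753 cells of the 6-month KO library, which held no Y-linked UMI, 581 of them superficial-like. The size of the KO value thus depended on which cells of both KO libraries were counted. The layer shares used as weights were those of the cells kept.

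Inside the wing-like layer every sub-cluster had less Ttc36 at 6 months. The one led by Krt15 went from 349.8 to 183 CPM in WT and from 427 to 70.3 CPM [22.8 to 164] in KO. The one led by Muc15 went from 66.01 to 23.5 CPM in WT and from 118 to 3.83 CPM in KO, where 1 count was left. The one led by Fabp5 went from 163 CPM [142 to 187] to 129 CPM [102 to 161] in WT, intervals that overlap, and from 210 to 85.8 CPM in KO.

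Cited4 encodes a transactivator that binds the histone acetyltransferases CBP and p300 and has no DNA-binding domain of its own. Over all epithelial-like cells its level was 47.8 CPM [45.1 to 50.7] in WT and 39.5 CPM [37.3 to 41.8] in KO at 2 months, and 21.5 CPM [20.04 to 23.05] in WT and 18.3 CPM [16.0 to 20.9] in KO at 6 months. Both 6-month libraries were lower than both 2-month libraries, and the direction held on the TMM scale (-0.98 in WT and -0.28 in KO).

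It was a gene of the upper layers. The Slc16a11-led cells held 92.0 (WT) and 93.2 (KO) CPM at 2 months and 33.8 and 36.1 CPM at 6 months. Superficial-like cells held 60.2 CPM [55.7 to 64.9] and 57.9 CPM [52.7 to 63.5] at 2 months and 28.6 CPM [26.5 to 30.9] and 22.6 CPM [19.4 to 26.1] at 6 months, a log2 change of -1.07 [-1.23 to -0.91] in WT and -1.36 [-1.62 to -1.11] in KO. Wing-like cells held 24.0 (WT) and 19.7 (KO) CPM at 2 months, from 129 and 205 counts, and 3.92 and 1.60 CPM at 6 months, from 9 and 2 counts. The wing-like log2 change was -2.61 [-3.77 to -1.64] in WT and -3.63 [-6.68 to -1.75] in KO. In these 3 strata all 6 intervals lay below 0, and keratocyte-like cells held at most 0.419 CPM. The wing-like change also takes in a shift among sub-clusters. The one led by Krt15 and Spink5 went from 347 cells in each genotype to 73 (WT) and 25 (KO). Those led by Muc15 and Fabp5 stood below the layer at 2 months, at 6.50 and 10.9 CPM (WT) and 8.81 and 15.7 CPM (KO). At 6 months they held 0 and 3 counts (WT) and 0 and 1 (KO).

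For Cited4 the layer mix acted against the drop in both genotypes. It added 1.44 CPM in WT and 7.20 CPM in KO. The part from levels inside layers was -27.7 CPM in WT and -28.4 CPM in KO. At a fixed mix the log2 change was -1.23 [-1.37 to -1.10] in WT and -1.49 [-1.72 to -1.25] in KO, larger than the -1.15 and -1.11 without it. Superficial-like cells had 5 sub-clusters with over 50 cells in each whole-cornea library. The 4 led by Clca4a, Cxcl2, Krtap3-2 and Sprr2f each had lower Cited4 at 6 months in both genotypes. The exception was the one led by Gm26870 and Pigr, with 49.6 (WT) and 58.9 (KO) CPM at 2 months and 39.8 and 55.5 CPM at 6 months, all intervals overlapping.

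Ube2h encodes the E2 ubiquitin-conjugating enzyme that works with the CTLH ligase, a large ring of subunits best known from red-cell maturation. Over all epithelial-like cells its level was 142 CPM [138 to 147] in WT and 135 CPM [131 to 139] in KO at 2 months, and 116 CPM [113 to 120] in WT and 79.7 CPM [74.7 to 85.0] in KO at 6 months. The log2 change was -0.30 in WT and -0.76 in KO on the CPM scale, and -0.12 in WT and 0.073, the other direction, in KO on the TMM scale.

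Inside layers the direction did not hang on the scale. Superficial-like cells held 180 CPM [172 to 188] in WT and 220 CPM [210 to 230] in KO at 2 months, and 141 CPM [137 to 146] and 90.1 CPM [83.7 to 96.8] at 6 months. Their log2 change was -0.35 [-0.43 to -0.27] in WT and -1.29 [-1.41 to -1.16] in KO, so KO went from the higher to the lower of the pair. Wing-like cells held 81.2 (WT) and 80.4 (KO) CPM at 2 months and 45.3 and 34.3 CPM at 6 months, a log2 change of -0.84 [-1.16 to -0.53] and -1.23 [-1.71 to -0.79]. The Slc16a11-led cells held 223 and 228 CPM at 2 months and 176 and 152 CPM at 6 months.

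In basal-like cells Ube2h was 42.5 CPM in WT and 43.1 CPM in KO at 2 months, and 39.9 CPM in WT and 20.1 CPM [12.3 to 31.1] in KO at 6 months, the last from 20 counts. The WT log2 change of -0.09 [-0.44 to 0.26] covers no change, and the KO one was -1.10 [-1.84 to -0.43]. Cycling-like cells held 19.6 to 25.1 CPM with overlapping intervals in all 4 libraries. In every whole-cornea library superficial-like and Slc16a11-led cells had more Ube2h than wing-like cells. Wing-like and basal-like levels had overlapping intervals at 6 months in WT (45.3 CPM [37.0 to 54.9] and 39.9 CPM [34.8 to 45.6]) and in KO (34.3 CPM [24.8 to 46.2] and 20.1 CPM [12.3 to 31.1]).

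For Ube2h, too, the mix acted against the drop. It added 5.72 CPM in WT and 29.2 CPM in KO, while the part from levels inside layers was -32.1 and -84.1 CPM. The fixed-mix log2 change was -0.36 [-0.43 to -0.30] in WT and -1.10 [-1.21 to -0.98] in KO. All 5 superficial-like sub-clusters with over 50 cells in each whole-cornea library were lower at 6 months in both genotypes. The small one led by Gm26870 and Pigr stood out with 463 (WT) and 533 (KO) CPM at 2 months and 356 and 274 CPM at 6 months.

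**Figure D2:**
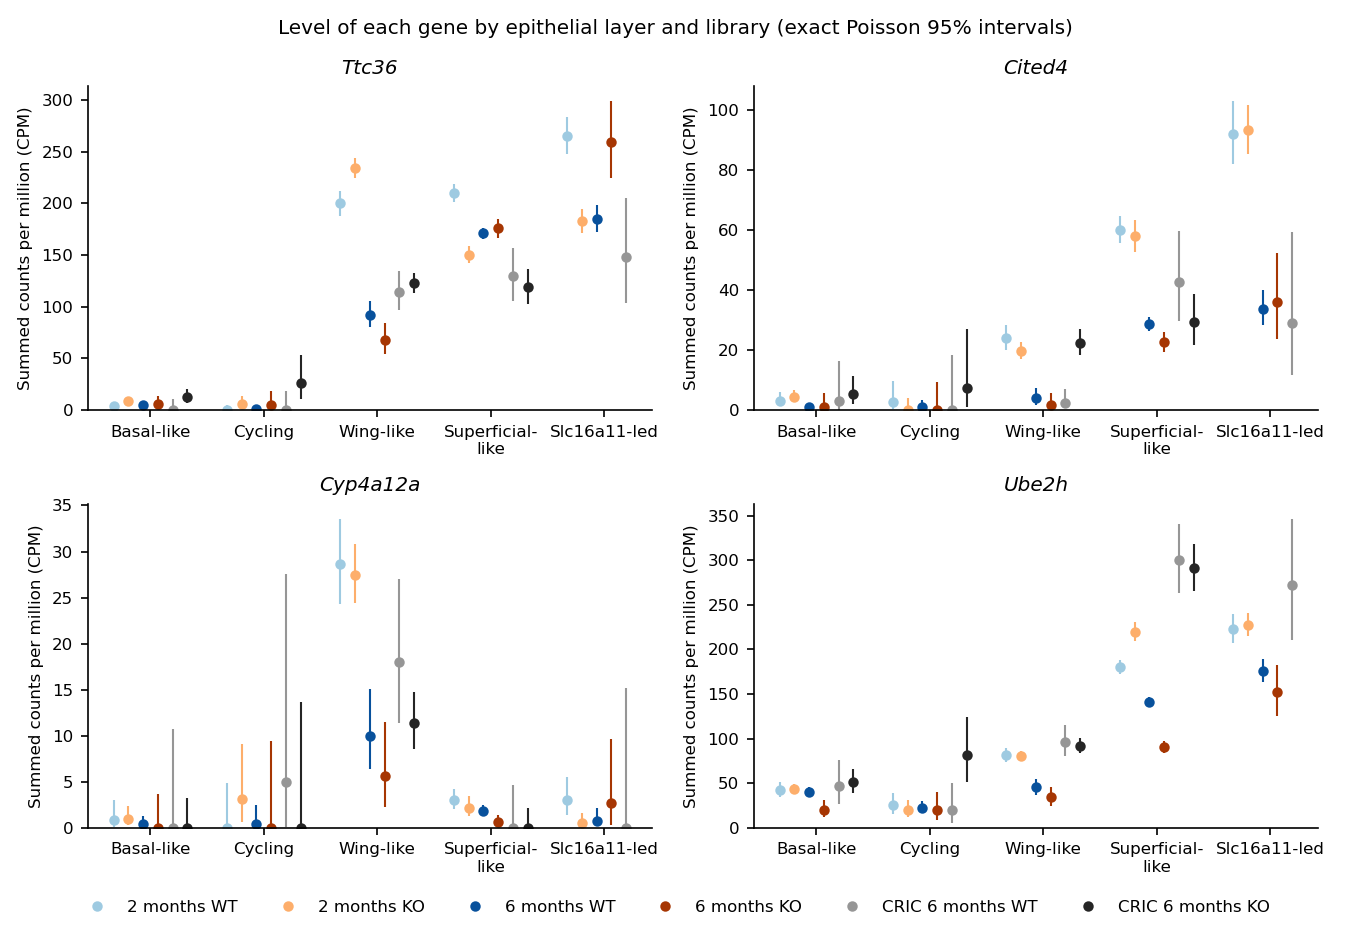
Level (CPM, linear vertical axis, scaled for each gene) by layer in the 4 whole-cornea and the 2 CRIC libraries, with points for the level and bars for exact Poisson 95% intervals, leaving out CRIC points that rest on under 30 cells. Wing-like Ttc36 sits at 199.9 (WT) and 234.0 (KO) CPM at 2 months and in the 6-month libraries at 91.9 (WT) and 67.8 (KO) CPM, whereas superficial-like Ttc36 in KO goes from 150 to 176 CPM.

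Put side by side in the whole-cornea libraries, the wing-like layer showed the lower 6-month level of all 4 genes. With a drop of 2-fold or more as the mark, 3 of the 4 passed it in wing-like WT cells, where 1.96% of 6793 genes did, and 4 of 4 in wing-like KO cells, where 5.43% of 6792 genes did. In superficial-like cells 1 of the 4 (Cited4) passed it in WT, against 0.943% of 2863 genes, and 3 of 4 (all but Ttc36) in KO, against 5.17%. Cyp4a12a, below 10 CPM in superficial-like cells, is not among those 2863 genes. The age contrast chose the members, so these shares set the scale and support nothing. Over the 4 named layers and the Slc16a11-led cells in both genotypes, 10 pairs in all, the 6-month level was the lower one in 6 pairs for Ttc36, 9 for Cited4, 8 for Cyp4a12a and 9 for Ube2h. The interval lay below 0 in 4, 6, 5 and 7 pairs and above 0 in 2 pairs, both of Ttc36 in KO. Of all genes of at least 10 CPM, 43.1% to 70.0% were lower at 6 months in these pairs, a range that takes in 6 of 10. Some of the pairs counted as lower held few counts, such as 5 and then 0 for Cyp4a12a in basal-like KO cells.

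**Figure D3:**
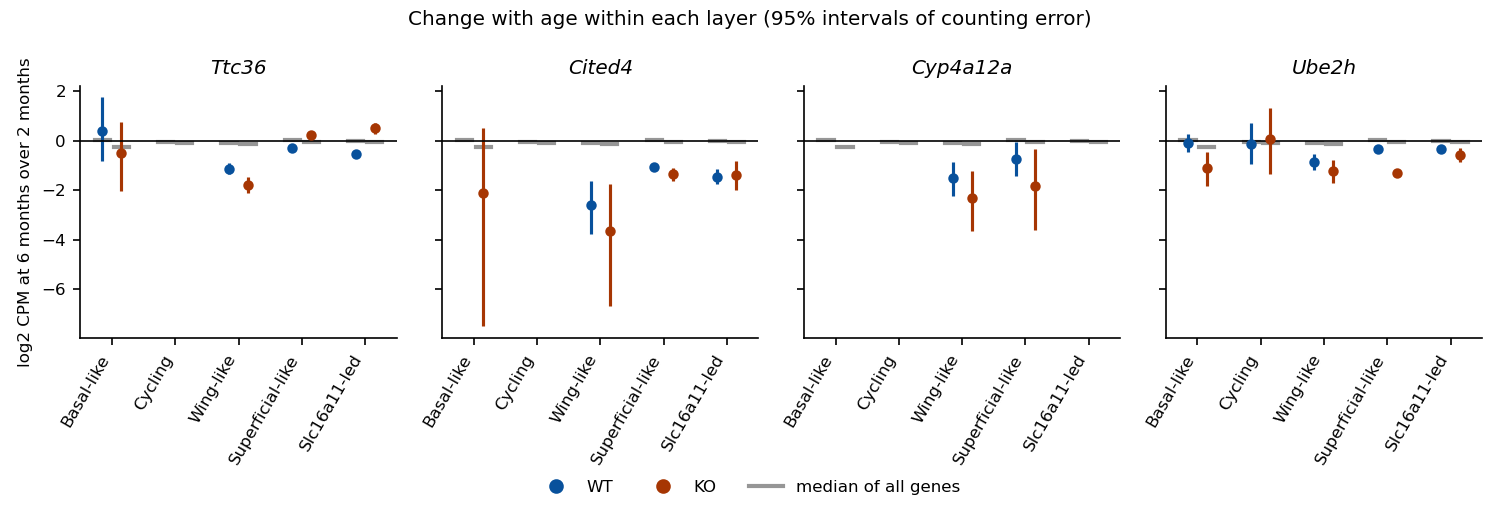
Log2 of the level at 6 months over that at 2 months (vertical axis) of each gene inside each layer, in WT and KO, with bars for exact 95% intervals of counting error and grey marks for the median of all genes in that layer, leaving out pairs with under 20 counts or a 0. Wing-like points lie below 0 for all 4 genes, and Ttc36 in superficial-like and Slc16a11-led cells lies below 0 in WT (-0.30 and -0.52) and above 0 in KO (0.23 and 0.51).

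**Figure D4:**
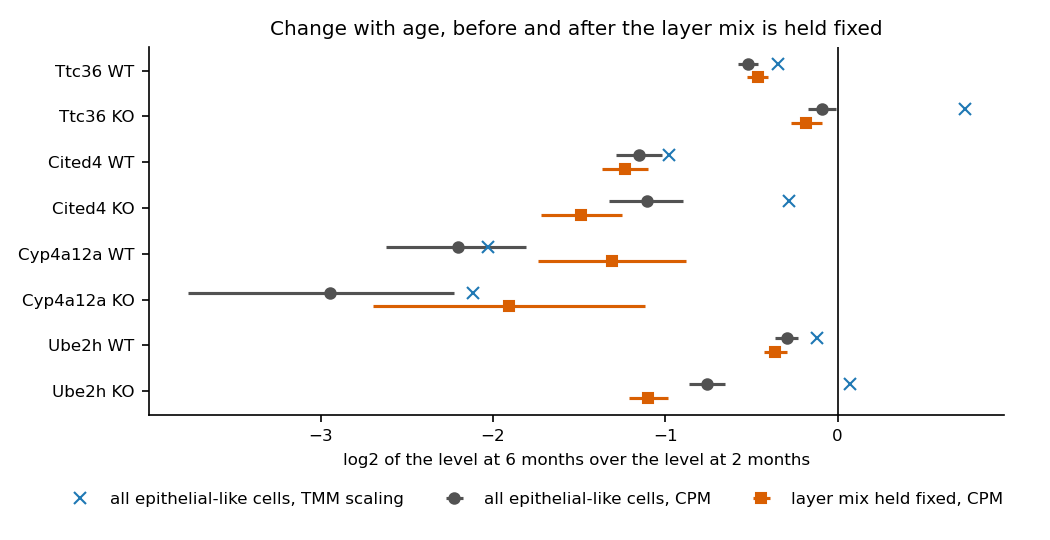
Log2 of the level at 6 months over that at 2 months (horizontal axis) for each gene and genotype, over all epithelial-like cells on the CPM scale (circles), the same on the TMM scale (crosses, drawn with no interval) and with the layer mix held fixed (squares), with bars for 95% intervals of counting error. All 8 fixed-mix values lie below 0, and on the TMM scale Ttc36 and Ube2h in KO lie above 0 (0.74 and 0.073).

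The share of cells with at least 1 UMI of a gene was compared after thinning each cell to 1000 UMIs. In wing-like cells Ttc36 was seen in 15.3% (WT) and 15.1% (KO) of cells at 2 months and in 8.31% and 3.39% at 6 months, against 0.0922% to 0.170% of keratocyte-like cells. In superficial-like cells it was seen in 18.3% [16.0 to 20.9] and 14.9% [12.2 to 18.1] at 2 months and in 13.8% [11.9 to 16.0] and 14.7% [12.4 to 17.2] at 6 months, with no difference beyond counting error in KO. Left unthinned, the WT share was 77.2% at 2 months and 83.0% at 6 months, the other direction, at median depths of 11704.5 and 20633 UMIs.

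The shares of Cited4 in superficial-like cells were 5.38% (WT) and 5.87% (KO) at 2 months and 3.44% and 2.37% at 6 months. Of unthinned wing-like cells, 9.98% and 9.61% had it at 2 months against 2.83% and 0.488% at 6 months. Their median depths were 4679.5 (WT) and 5322.5 (KO) UMIs at 2 months and 6775.5 and 2944.5 at 6 months. The unthinned KO shares thus also carry a lower depth at 6 months. Cyp4a12a was seen in 1.92% and 2.02% of thinned wing-like cells at 2 months and in 0.958% [0.198 to 2.78] and 0.261% [0.00661 to 1.45] at 6 months, from 3 cells and 1 cell, which is near the limit of this depth. Ube2h was seen in 17.3% and 19.8% of thinned superficial-like cells at 2 months and in 13.5% and 8.46% at 6 months. Keratocyte-like cells also used Ube2h (5.36% to 7.27% of thinned cells), and between 361 and 2072 of them per library were too shallow to be thinned.

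**Figure D5:**
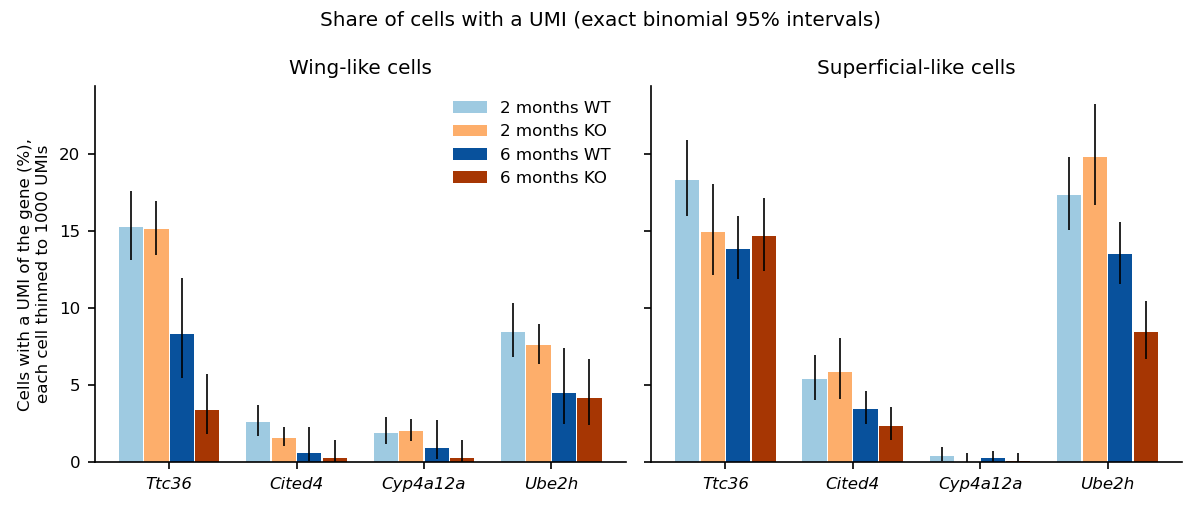
Share of wing-like (left) and superficial-like (right) cells with at least 1 UMI of each gene after thinning to 1000 UMIs per cell (percent, vertical axis), 1 bar per whole-cornea library with exact binomial 95% intervals. Wing-like Ttc36 was seen in 15.3% and then 8.31% of cells in WT and in 15.1% and then 3.39% in KO, and superficial-like Ube2h in 17.3% and then 13.5% in WT and in 19.8% and then 8.46% in KO.

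Genotype did not choose the members, so it was tested with edgeR's quasi-likelihood test over the summed counts of the 4 whole-cornea libraries, with age as a covariate and 1 residual degree of freedom. None of the 4 genes passed in epithelial-like cells. The KO over WT log2 fold was -0.09 ± 0.35 (SE) for Ttc36, -0.31 ± 0.25 for Cited4, -0.12 ± 0.29 for Cyp4a12a and -0.35 ± 0.33 for Ube2h, each with an adjusted p of 1 by edgeR. Of 12190 genes tested, 37 passed, or 0.304%. On the CPM scale KO was the lower of the pair at both ages for Cited4 and Ube2h, and at 1 age each for Ttc36 and Cyp4a12a. The folds above are on the TMM scale, where the scaling factors of KO were 1.35 at 2 months and 0.762 at 6 months, against 1.05 and 0.926 in WT. The order of a pair can therefore differ between the 2 scales. Ube2h, the neighbour of the inactivated cluster with 3 miR-182-5p seed matches, was thus not shown to differ between genotypes, and SEs of this size leave room for differences of moderate size either way.

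Inside layers the genotypes could only be set side by side. Superficial-like Ube2h was higher in KO at 2 months, by 0.29 [0.20 to 0.38] on the log2 scale, and lower at 6 months, by -0.65 [-0.77 to -0.53]. Wing-like Ttc36 was higher in KO at 2 months, by 0.23 [0.12 to 0.33], and lower at 6 months, by -0.44 [-0.82 to -0.07]. Neither gene kept a direction between the ages. In the 2-month KO library, 817 epithelial-like cells held Y-linked UMIs only and 2016 held Xist only. Over all layers, with the layer mix of each set, their levels were 142 and 158 CPM for Ttc36, 42.4 and 30.5 CPM for Cited4, 12.1 and 10.6 CPM for Cyp4a12a, and 147 and 112 CPM for Ube2h. In wing-like cells alone they were 202 and 248 CPM for Ttc36 and 24.5 and 17.4 CPM for Cited4. Cyp4a12a was 30.6 CPM [23.9 to 38.5] and 21.7 CPM [18.0 to 25.8] there, and Ube2h 94.7 and 74.9 CPM. Among KO cells with Xist and no Y-linked UMIs, the wing-like log2 change with age was -1.998 [-2.37 to -1.65] for Ttc36, -3.30 for Cited4, -2.03 for Cyp4a12a and -1.01 for Ube2h. The superficial-like change was 0.16 [-0.05 to 0.36] for Ttc36, an interval that covers no change, -1.21 for Cited4 and -1.36 for Ube2h. At a fixed mix it was -1.71 for Cited4, -1.85 for Cyp4a12a and -1.12 for Ube2h.

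Keratocyte-like cells, the stromal cells that make up most of each whole-cornea library, were not part of the contrast that chose the genes. Ube2h was the one member well counted there, at 73.2 CPM [70.2 to 76.4] in WT and 77.0 CPM [74.0 to 80.2] in KO at 2 months, and 53.8 CPM [52.0 to 55.7] in WT and 60.6 CPM [56.8 to 64.6] in KO at 6 months. Both 6-month libraries were the lower ones. The age test gave a log2 fold of -0.53 ± 0.25 (SE) with an adjusted p of 0.605 by edgeR, so it did not pass (228 of 14137 genes, or 1.61%, did). Ttc36, at about 1 CPM, gave -0.58 ± 0.51 with an adjusted p of 1 by edgeR, and Cited4 and Cyp4a12a were too low to be tested. By genotype Ube2h gave 0.04 ± 0.25 and Ttc36 0.14 ± 0.51, both with an adjusted p of 1 by edgeR, where 44 genes (0.311%) passed.

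The CD45-enriched libraries of 6 months also held 593 (WT) and 860 (KO) epithelial-like cells. They are another preparation and were set beside the whole corneas with no test. The sub-cluster led by Krt15 and Spink5 held 97 of 214 (WT) and 312 of 445 (KO) wing-like cells there. In the whole corneas it held 347 of 1062 and 347 of 1706 at 2 months, and 73 of 318 and 25 of 410 at 6 months. Wing-like comparisons between the preparations also take in this make-up. Their wing-like Ttc36 was 114 CPM [96.5 to 134] in WT and 123 CPM [113 to 133] in KO, between the 2-month and the 6-month whole-cornea levels. In KO this also held inside each wing-like sub-cluster. In WT it held in the one led by Muc15 (56.9 CPM). In those led by Krt15 and Fabp5 the WT levels were 145 CPM [119 to 174] and 90.8 CPM [51.9 to 147]. The 6-month whole-cornea WT levels there were higher, at 183 CPM [150 to 221] and 129 CPM [102 to 161], with overlapping intervals. Wing-like Cyp4a12a was 18.0 CPM [11.4 to 27.0] and 11.4 CPM [8.55 to 14.8]. Ube2h in superficial-like cells, at 300.3 and 291 CPM, stood above all 4 whole-cornea libraries, and wing-like Cited4 was 2.35 CPM in WT but 22.3 CPM [18.3 to 26.9] in KO. That KO level of Cited4 was not below the 2-month whole-cornea KO level of 19.7 CPM [17.1 to 22.6]. The sub-clusters led by Muc15 and Fabp5 held less Cited4 in KO at 2 months (8.81 and 15.7 CPM), and they were a smaller part of the CD45-enriched wing-like cells. Wing-like Ube2h was 96.3 CPM [80.0 to 115] and 92.1 CPM [83.7 to 101], above the 6-month whole corneas and not below the 2-month ones. Superficial-like Ttc36, at 129 CPM [106 to 157] and 119 CPM [103 to 136], was instead below the 6-month whole corneas. In KO it was also below the 2-month whole-cornea level of 150 CPM [142 to 159]. Several 6-month levels thus differed between the preparations beyond counting error, and the superficial-like ones rest on 92 (WT) and 132 (KO) cells.

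Free RNA followed the same order for 3 of the 4 genes. It held 67.6 (WT) and 67.7 (KO) CPM of Ttc36 at 2 months and 33.4 and 37.5 CPM at 6 months. Cited4 stood at 20.4 and 22.5 CPM and then at 8.52 and 5.45 CPM, and Cyp4a12a at 5.57 and 8.20 CPM and then at 0.897 and 0.682 CPM. Ube2h in free RNA was 73.0 and 97.4 CPM at 2 months and 85.5 and 94.8 CPM at 6 months, with no lower level at 6 months. Subtracting free RNA at the share given above changed the direction of no layer value of the 4 genes.

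The partners of each gene were taken from lists set down with the earlier results known. Among 32 other E2 enzymes in epithelial-like cells, by edgeR over all genes, 2 were higher at 6 months (Ube2c, a cell-cycle E2, by 1.27, and Ube2n, which builds Lys63-linked chains, by 1.19 on the log2 scale) and 1 was lower (Ube2q1, by -0.96), all on edgeR's TMM scale, where 4.03% of all genes were higher and 2.69% lower. On the CPM scale over the same cells the changes were smaller for Ube2c (0.96 in WT and 0.58 in KO) and Ube2n (0.52 and 0.84), and Ube2n inside superficial-like cells gave 0.45 and 0.51. The list's median was 0.26 against -0.04 over all genes. These 3 enzymes and Cyp4f15 were named after their values were seen, and with the 6-month KO library left out edgeR called no gene by age (1641 at an unadjusted p below 0.05). None of the 11 CTLH subunits passed, with a median of -0.06. Inside layers, the subunit Wdr26 was lower at 6 months in wing-like cells, by -0.50 (WT) and -0.63 (KO), while the subunits Ypel5 (-0.01 and 0.27) and Mkln1 (0.20 and 0.15) were not. Wing-like Ube2d3, the E2 enzyme of many ligases, was 265 and 256 CPM at 2 months and 270 and 243 CPM at 6 months. Wing-like Ube2b, with -0.10 (WT) and -0.01 (KO), had intervals that cover no change. Wing-like Ube2r2 was lower in both genotypes, by -0.26 [-0.46 to -0.06] and -0.34 [-0.62 to -0.08]. Ube2q1 was lower in wing-like cells (-0.47 and -0.91) and in superficial-like cells (-1.30 and -1.75).

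Of 19 genes listed as the Cyp4 family, their reductase Por among them, 7 were high enough to test, with 1 lower at 6 months (Cyp4f15, by -2.01 from 1.36 and 1.12 CPM at 2 months) and a median of -0.11. Por, which feeds electrons to these enzymes, was 100.5 and 95.1 CPM in wing-like cells at 2 months and 84.0 and 78.2 CPM at 6 months. Of 22 targets of PPAR alpha, a fatty-acid sensor known to raise Cyp4a genes in liver, 15 were tested and 1 was higher (Vnn1, a pantetheinase, by 0.86), with a median of -0.08. That fold is on the TMM scale. On the CPM scale the difference of Vnn1 was 0.18 (WT) and 0.54 (KO) over all epithelial-like cells and 0.01 and -0.22 inside superficial-like cells. The fatty-acid dehydrogenase Acadm, another target, was 209 and 203 CPM in wing-like cells at 2 months and 213 and 158 CPM at 6 months.

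None of 8 tested CITED genes and partners passed by age, with a median of -0.05. Cited2, the sister of Cited4 and also a CBP and p300 binder, was nonetheless lower at 6 months in superficial-like cells, at 163 and 181 CPM at 2 months and 91.9 and 111 CPM at 6 months, and in wing-like cells by -1.05 (WT) and -0.65 (KO). The partners Lmo4 (-0.31 and 0.26) and Hif1a (0.00 and 0.04) in wing-like cells had no shared direction. Of 7 tyrosine-breakdown genes 2 were tested and none passed, and Hpd, the liver partner of Ttc36, had no count in epithelial-like cells. None of 17 clock genes passed, with a median of -0.28. Wing-like Clock was 145 and 122 CPM at 2 months and 152 and 140 CPM at 6 months. Hlf, the clock gene of highest level, was lower in wing-like cells, by -0.24 [-0.39 to -0.08] (WT) and -0.32 [-0.52 to -0.13] (KO). In basal-like cells Hlf was lower by -0.25 and -0.92. Wing-like Nr1d1 (-0.09 and 0.16) had no shared direction. By genotype in epithelial-like cells, and by age and genotype in keratocyte-like cells, no gene of any of these lists passed edgeR, where 356, 969 and 369 of all genes had an unadjusted p below 0.05 and DESeq2 called 1, 53 and 0 genes.

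Genes with a profile like that of each member were found by Pearson's r of log2(CPM + 1) over 16 points, the 4 named layers in 4 libraries, among 6854 genes of at least 10 CPM. These points share libraries and depth, and r is a description. Closest to Ttc36 were Epha4 (r = 0.98), an ephrin receptor, Aqp5 (0.98), the water channel of the corneal epithelium, and Aldh3b2 (0.97), an aldehyde dehydrogenase. Closest to Cited4 were Lypd2 (0.94), Hsbp1l1 (0.93) and the copper transporter gene Slc31a2 (0.93). Closest to Cyp4a12a were the lysosomal genes Laptm4a (0.95) and Atp6ap2 (0.95) and, with them, Reps2 (0.95), and among those closest to Ube2h were Rhob (0.97), a small GTPase, and Lrrfip1 (0.96). Aqp5 shared the layer pattern of Ttc36 but not the size of its age difference, with a wing-like log2 change of -0.18 (WT) and -0.36 (KO). Reps2 in wing-like cells went from 43.8 to 30.9 CPM in WT and from 34.0 to 15.2 CPM in KO.

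Among themselves, Cited4 and Ube2h had the most alike profiles (r = 0.96 over the same 16 points), and the other pairs lay between 0.38 (Cyp4a12a and Ube2h) and 0.81 (Ttc36 and Ube2h). For this pair the 250 bases before the annotated start are printed, from RefSeq on GRCm38.p6, with GC boxes (GGGCGG or its reverse complement) and TATA boxes (TATAAA or its reverse complement) in capitals. Cited4 lies at chr4:120666313-120666562 on the plus strand and entry 1 of Ube2h at chr6:30304540-30304789 on the minus strand.
Cited4 promoter: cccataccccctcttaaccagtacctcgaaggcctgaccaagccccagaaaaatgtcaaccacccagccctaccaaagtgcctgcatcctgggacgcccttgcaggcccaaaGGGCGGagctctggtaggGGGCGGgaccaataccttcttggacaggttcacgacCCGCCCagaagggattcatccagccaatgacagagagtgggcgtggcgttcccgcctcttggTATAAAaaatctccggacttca
Ube2h promoter: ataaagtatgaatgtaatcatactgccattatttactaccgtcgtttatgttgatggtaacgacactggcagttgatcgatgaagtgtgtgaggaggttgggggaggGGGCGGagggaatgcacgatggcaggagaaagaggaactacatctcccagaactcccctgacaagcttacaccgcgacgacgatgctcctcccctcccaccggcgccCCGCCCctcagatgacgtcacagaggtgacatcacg
Cited4 held 3 GC boxes and 1 TATA box, and the printed Ube2h window held 2 GC boxes and no TATA box. Entry 2 of Ube2h, at chr6:30243804-30244053 and not printed, holds a TATA box as its reverse complement and no GC box. Of 32851 promoter windows of this length, 32.7% hold a GC box and 12.4% a TATA box on either strand. Neither printed window held the E-box CACGTG (6.02% of windows) or the AP-1 motif TGACTCA (4.46%), and no match says only that these letters are not in this window. Ttc36 and Cyp4a12a had no entry in the promoter table.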

How the data were processed

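Single-cell RNA libraries (10x Genomics 3′ kit) were counted by the submitters. The deposited matrices hold whole UMI counts per gene and barcode on mm10, made with Cell Ranger, version 2.1.1 per the submitters' processing notes but 6.0.1 per the file headers. The deposited matrices were not limited to cells, so cells were called here as barcodes of 500 or more UMIs and 250 or more genes, with mitochondrial genes giving no more than 20% of UMIs. Below 5000 UMIs the profile also had to depart from free RNA (barcodes of up to 100 UMIs) at an adjusted p of 0.01. Cells were clustered (2000 variable genes without the 4 members, 30 principal components, 15 neighbours, Leiden resolution 1, leidenalg 0.10.2) and named from marker lists. Clusters with markers of another cell class were left out of the layers. The doublet caller did not work here, so no doublets were removed, and leaving out the top 6% of scores was tried instead.

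Counts were summed per class and library and given as CPM, with 95% intervals (scipy 1.17.1). A level of 0 allows up to 3 counts. UMI counts were tested with edgeR 4.0.16 (quasi-likelihood, TMM, filterByExpr, Benjamini-Hochberg at 0.05, R 4.3.3), with DESeq2 1.42.0 as an alternative, and the test was checked on simulated data. With 1 library per group, the spread comes from the additive fit of age and genotype. The members and lists were chosen with earlier results of these data known. Besides the members, the named genes are the 3 genes most like each member in profile and up to 3 genes of highest level per list, with exceptions said. A gene that this rule names is not reported here.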

Additional observations from a re-analysis of the deposited data

Results flagged for a closer look

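The age difference of Ttc36 had opposite signs in WT and KO in 2 strata. In superficial-like cells the log2 change from 2 to 6 months was -0.30 in WT and 0.23 in KO. In Slc16a11-led cells it was -0.52 in WT and 0.51 in KO. Each value compares 2 libraries, all in the direction given, and the difference between genotypes was not tested. With only KO cells that held Xist and no Y-linked UMIs, the superficial-like KO value was 0.16 [-0.05 to 0.36]. Over its 11 alternatives that value ran from 0.047 to 0.54.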

How the results depend on the processing

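Among the values of the 4 genes inside layers, 246 of 257 alternatives moved by less than counting error, and the only direction that changed was that of the few Ttc36 counts in basal-like WT cells (-2.49 to 0.51, log2). Over all epithelial-like cells, TMM scaling gave -0.34 (WT) and 0.74 (KO) for Ttc36, -0.98 and -0.28 for Cited4, -2.12 for Cyp4a12a in KO, and -0.12 and 0.073 for Ube2h, so Ttc36 and Ube2h in KO changed direction. KO cells with Xist and no Y-linked UMIs gave -0.56 for Ttc36. At a fixed mix no direction changed. Another clustering seed gave -0.29 for Ttc36 and -1.73 for Cited4 in KO and -0.43 for Ube2h in WT. Centring genes within libraries gave -1.01 for Cited4 and -0.94 for Ube2h in KO. Ttc36 in KO was -0.28 with layers from each cell's marker scores (12.0% of cells lay near a boundary), -0.29 with the Slc16a11-led cells counted as superficial-like and -0.59 with Xist-only cells. Each sub-cluster as its own layer gave -0.39 (Ttc36), -1.09 (Cited4) and -0.43 (Ube2h) in WT and -1.07 for Cyp4a12a in KO. Without thinning, the superficial-like WT share was higher at 6 months by 5.84 percentage points for Ttc36 and 3.5995 for Ube2h. The TMM, sub-cluster, Slc16a11 and single-factor alternatives were chosen after seeing the data. The cause of these moves was not tested.

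The number of genes called depended strongly on the fit. For genotype in epithelial-like cells it was 37, with DESeq2 1, with RLE size factors 7, with at least 1000 UMIs per cell 9, with genotype alone 0, and 0 to 3 without each library in turn. For age in epithelial-like cells it was 819, with DESeq2 118, RLE 328, 1000 UMIs 385, age alone 260, and 0 to 957 without each library. For age in keratocyte-like cells it was 228, with DESeq2 53, age alone 10, and 108 to 3293 without each library. For genotype in keratocyte-like cells it was 44, with DESeq2 0, no filter 70, genotype alone 0, and 0 to 28 without each library. The genotype folds of the members, none of which passed, changed sign when a library was left out, except that of Ube2h in epithelial-like cells (-0.41 to -0.31). In epithelial-like cells they ran from -0.47 to 0.26 for Ttc36, with 0.11 without WT at 2 months and the highest without KO at 2 months. Cited4 ran from -0.78 to 0.18 and Cyp4a12a from -1.51 to 1.28, both highest without WT at 2 months, and Cyp4a12a was 0.61 without KO at 6 months and 0.00041 with genotype alone. In keratocyte-like cells Ttc36 ran from -0.24 to 0.49 and Ube2h from -0.26 to 0.31, both lowest without KO at 2 months, and without WT at 6 months they were -0.04 and -0.17. No paired analysis was possible because each group is 1 library and the labels give no numbers that pair them.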
